A study of Homo sapiens with 2 samples.

Results

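The insulin-like growth factor (IGF) axis was described in 10 genes of the 23398 rows in each expression table: the binding protein genes IGFBP1 to IGFBP7 and the receptor genes IGF1R, IGF2R and INSR. They were taken by gene symbol, each symbol had 1 row, and all 10 passed the minimum of 10 reads over both libraries. The data are RNA sequencing of 2 libraries, 1 from a SETD2 knockout of the human renal cell carcinoma line 786-O, made with a zinc finger nuclease, and 1 from the line with wild-type SETD2. Both lines were grown in RPMI1640 medium with fetal bovine serum, and no treatment beyond medium is named. SETD2 places the trimethyl mark on lysine 36 of histone H3 along transcribed genes, and 786-O derives from clear cell renal carcinoma and lacks functional VHL, which marks hypoxia-inducible factors for degradation. The labels do not say whether the knockout line is 1 clone.

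IGF1 and IGF2 are growth factors that signal through the receptor tyrosine kinase IGF1R, and insulin signals through its relative INSR. IGF2R, the cation-independent mannose 6-phosphate receptor, has no kinase: it takes up IGF2 for degradation and carries lysosomal enzymes. The secreted binding proteins IGFBP1 to IGFBP6 hold IGFs with high affinity, which can keep the ligand from IGF1R or deliver it, whereas IGFBP7 is a related protein with low affinity for IGFs. IGFBP1 and IGFBP3 are known as genes that hypoxia can induce, and IGFBP1 is best known as a liver protein that insulin suppresses.

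In genes, 50670012 fragments were counted in the knockout and 62304084 in the wild-type library. Scaling of the libraries used the trimmed mean of M values (TMM), and scaled counts are given as CPM, while RPKM values, which also allow for gene length, are the authors' own. A gene is called higher or lower in the knockout when the exact 95% interval of its ratio lies wholly above 2 or wholly below 0.5. With 1 library per line there is no replicate check, no p-value can be had, and every interval covers counting error only, so each difference is one between these libraries. A lower level in such bulk RNA does not tell fewer expressing cells from less RNA per cell. SETD2 itself had 1404 fragments (2.39 RPKM) in the knockout and 4908 (6.79 RPKM) in the wild-type library, a ratio of 0.334 with an interval of 0.314 to 0.354.

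Markers of the labelled line were abundant. VIM had 1192 and 1734 RPKM in the knockout and wild-type libraries, KRT8 211 and 239 RPKM in the same order, CD70 271 and 275 RPKM, and the renal factor PAX8 30.9 and 43.7 RPKM. CA9 had 0 knockout fragments and 1 wild-type fragment. Summed over 7 markers each, leukocyte genes had 71.1 RPKM in the knockout and 24.4 RPKM in the wild-type library, endothelial genes 0.482 and 0.404 RPKM likewise, and fibroblast and pericyte genes 3.35 and 2.94 RPKM. The leukocyte sum was mostly LCP1 (54.6 RPKM in the knockout, 9.50 RPKM in the wild-type library) and CD68 (16.0 and 14.7 RPKM likewise), with CD14 at 0.302 and 0.0452 RPKM. The defining leukocyte genes PTPRC and CD3E had 1 and 0 fragments in the knockout and 2 and 0 in the wild-type library. The most abundant endothelial markers were ESAM (0.384 RPKM in the knockout, 0.281 RPKM in the wild-type library), CLDN5 (0.0186 and 0.0554 RPKM likewise), TEK (0.0483 and 0.00980 RPKM) and KDR (0.0190 and 0.0424 RPKM). Those of fibroblasts and pericytes were COL1A1 (1.95 RPKM in the knockout, 0.823 RPKM in the wild-type library), LUM (0.537 and 1.38 RPKM likewise) and RGS5 (0.774 and 0.570 RPKM). By the interval rule, 1 of 11 measured markers of the line (LHX1) was higher and 0 were lower. Of 4 measured leukocyte markers, 2 (LCP1 and CD14) were higher, and 0 of 5 endothelial markers were called. Of 6 measured fibroblast and pericyte markers, 2 were lower (LUM, and COL1A2 with 0 knockout and 14 wild-type fragments). Of 3 measured hepatocyte markers, 1 (ALB) was higher. The same rule called 5.75% of all 16894 measured genes higher and 3.37% lower. With so few markers per list, nothing is read from these counts. Of 5 hepatocyte markers, SERPINA1 had 18.4 RPKM in the knockout and 35.5 RPKM in the wild-type library, FGB 0.0871 and 0.0418 RPKM likewise, and ALB 17 knockout and 0 wild-type fragments. The part of LCP1-expressing or other cells in the differences below was not tested.

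Of the 7 binding protein genes, 4 were lower in the knockout library (IGFBP1, IGFBP3, IGFBP4 and IGFBP5), 1 was higher (IGFBP7), and IGFBP2 and IGFBP6 were not wholly beyond 2-fold. None of the 3 receptor genes was wholly beyond 2-fold by its interval. Among all 16894 genes measured, 3.37% were lower and 5.75% higher by the same rule. The genes were chosen with these values known, so nothing is read from the difference between these shares. The median log2 ratio was -1.27 over the binding proteins, -0.42 over the receptors and 0.02 over all genes.

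**Figure D1:**
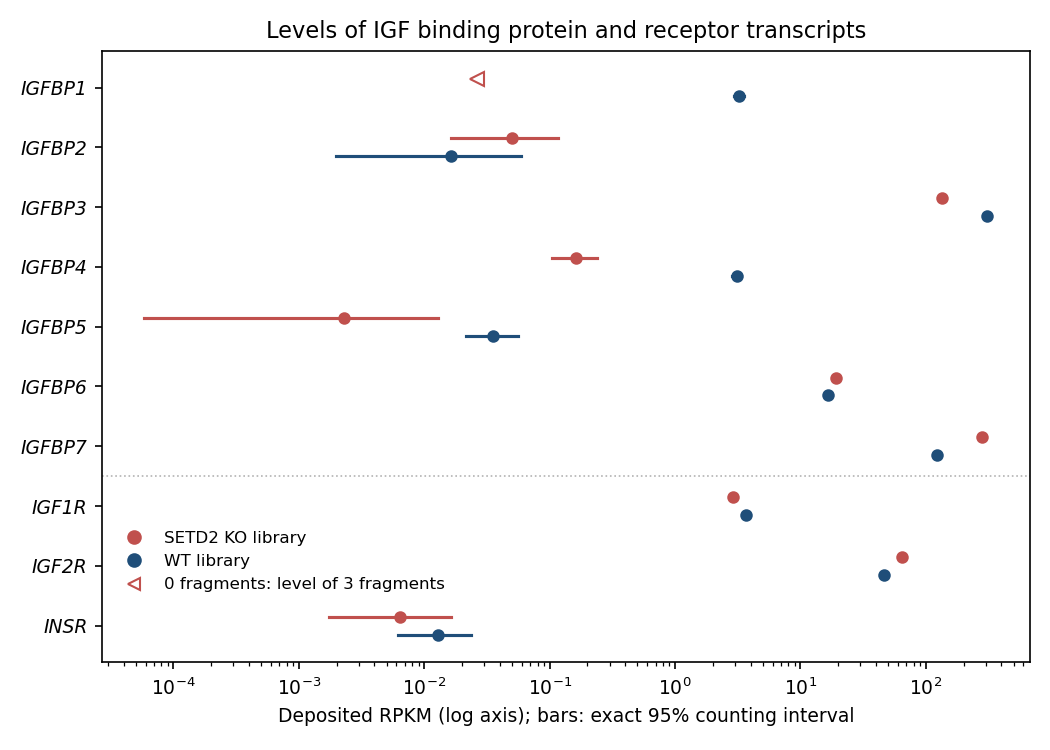
Deposited RPKM of the 10 genes on a log axis, with the SETD2 knockout library (red) above the wild-type library (blue) in each row and exact 95% counting intervals as bars. IGFBP1 had 0 knockout fragments and is drawn at the level of 3 fragments, 0.0261 RPKM. IGFBP7, IGFBP3 and IGF2R had the highest levels in both libraries, and IGFBP2, IGFBP5 and INSR lay below 0.1 RPKM in both.

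By level per length, the order in the knockout library was IGFBP7, IGFBP3, IGF2R, IGFBP6, IGF1R, IGFBP4, IGFBP2, INSR, IGFBP5 and IGFBP1. In the wild-type library it was IGFBP3, IGFBP7, IGF2R, IGFBP6, IGF1R, IGFBP1, IGFBP4, IGFBP5, IGFBP2 and INSR. Only 3 of the 10 genes, IGF2R, IGFBP6 and IGF1R, held the same place in both. Neighbours in that order whose counting intervals overlapped were IGFBP4 with IGFBP2, INSR with IGFBP5, and IGFBP5 with IGFBP1 in the knockout library. In the wild-type library they were IGFBP1 with IGFBP4, IGFBP5 with IGFBP2, and IGFBP2 with INSR.

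IGFBP3, the main IGF carrier of blood plasma, was the most abundant of the binding protein transcripts in wild-type cells and was lower in the knockout. It had 24660 fragments, or 474 CPM and 135 RPKM, in the knockout library, against 69548 fragments, or 1146 CPM and 308 RPKM, in the wild-type library. The ratio was 0.414, with an interval of 0.408 to 0.420, and 842 of the 16894 genes had a lower one. In the wild-type library 126 genes had a higher RPKM than IGFBP3, and in the knockout library 296 did.

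IGFBP7, a secreted protein of vessels and matrix that has been described as a tumour suppressor in several carcinomas, was higher in the knockout. It had 25535 fragments, or 491 CPM and 279 RPKM, in the knockout library and 13804 fragments, or 227 CPM and 122 RPKM, in the wild-type library. The ratio was 2.16, with an interval of 2.11 to 2.20, just past the 2-fold size rule. Relative to the median of its 50 nearest expressed genes its log2 ratio was 0.92 instead of 1.11, which no longer meets it. Leaving out rows that overlap IGFBP7, the nearest expressed gene on one side was NOA1, a mitochondrial GTPase 53.4 kb away, at a ratio of 1.36 (1.27 to 1.46). On the other side it was EPHA5, an ephrin receptor 8209 kb away, with 18 knockout and 34 wild-type fragments. The row of IGFBP7 touches at its end that of POLR2B, a subunit of RNA polymerase II, which had 13655 knockout and 14537 wild-type fragments and a ratio of 1.10.

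IGFBP3 and IGFBP7 exchanged places, while the summed deposited RPKM of the family, which allows for gene length and is not TMM-scaled, differed little. IGFBP1 to IGFBP7 together had 433 RPKM in the knockout and 454 RPKM in the wild-type library. IGFBP7 made up 64.4% of that sum in the knockout and 27.0% in the wild-type library, and IGFBP3 made up 31.1% in the knockout and 68.0% in the wild-type library. The ratio of IGFBP7 to IGFBP3 fragments, which needs no scaling between libraries, was 1.04 (interval 1.02 to 1.05) in the knockout and 0.198 (0.195 to 0.202) in the wild-type library, a 5.22-fold difference. Without the low-affinity IGFBP7, the sum over IGFBP1 to IGFBP6 was 154 RPKM in the knockout and 331 RPKM in the wild-type library.

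**Figure D2:**
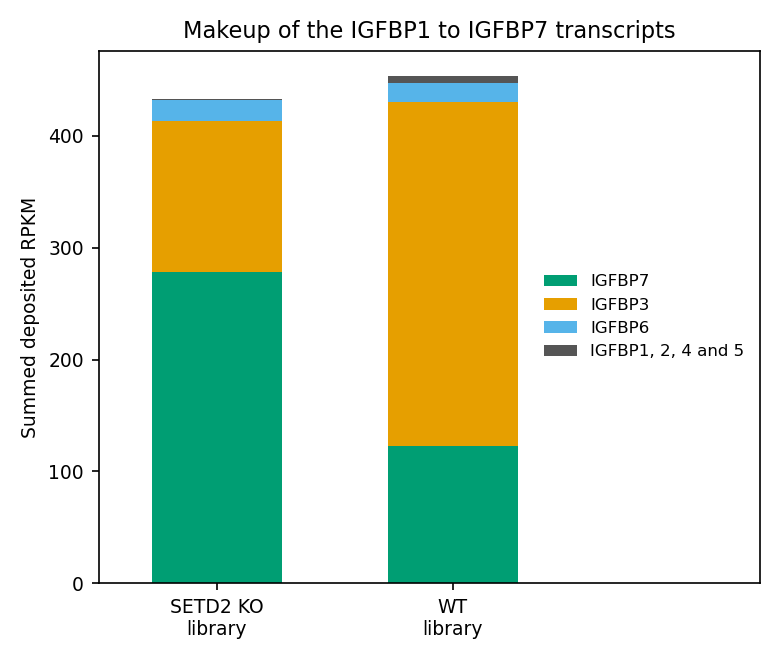
Summed deposited RPKM of IGFBP1 to IGFBP7 in the SETD2 knockout library (left bar) and the wild-type library (right bar), stacked by gene, with no error drawn. The bars reach 433 and 454 RPKM, and IGFBP7 makes up 64.4% of the knockout bar and 27.0% of the wild-type bar.

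IGFBP1, the insulin-suppressed binding protein, was counted in the wild-type library only. It had 0 fragments in the knockout library and 458 fragments, or 7.55 CPM and 3.24 RPKM, in the wild-type library. It was at least 131-fold lower against a floor of 3 knockout fragments, a one-sided limit, and at least 106-fold lower by the wider two-sided interval that sets the calls. Of 16894 genes, 3 (ULK2, GSTM4 and KRT19) had a lower fitted log2 ratio. Of the 88 measured genes with 0 knockout fragments, 3 (ULK2, GSTM4 and IGFBP1) had at least the 458 wild-type fragments of IGFBP1, whereas 9896 genes reached that count in the wild-type library. The genes closest to IGFBP1 in the log2 CPM of both libraries were TLR2, a pattern recognition receptor, with 1 knockout and 422 wild-type fragments, P2RY2, a nucleotide receptor, with 2 knockout and 395 wild-type fragments, and EFCAB4B with 2 knockout and 555 wild-type fragments. This likeness rests on 2 libraries.

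IGFBP1 and IGFBP3 are neighbours on chromosome 7 (hg19, 45927959 to 45933267 and 45951844 to 45960871), 18.6 kb apart. The next expressed genes on either side were SEPT7P2, a pseudogene 119 kb from IGFBP1, with a ratio of 0.577 (interval 0.490 to 0.678), and TNS3, a focal adhesion protein 1354 kb from IGFBP3, with a ratio of 1.06 (1.03 to 1.10). Among the 39 other expressed genes that start within 4 Mb of IGFBP1, 1 was lower (NACAD, 3 knockout and 61 wild-type fragments) and 2 were higher (HECW1 and ABCA13), and their median log2 ratio was -0.28. The surroundings of IGFBP3 were thus themselves slightly lower: relative to the median of its 50 nearest expressed genes, its log2 ratio was -0.99 instead of -1.27, which no longer meets the size rule. IGFBP1 meets it either way.

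**Figure D3:**
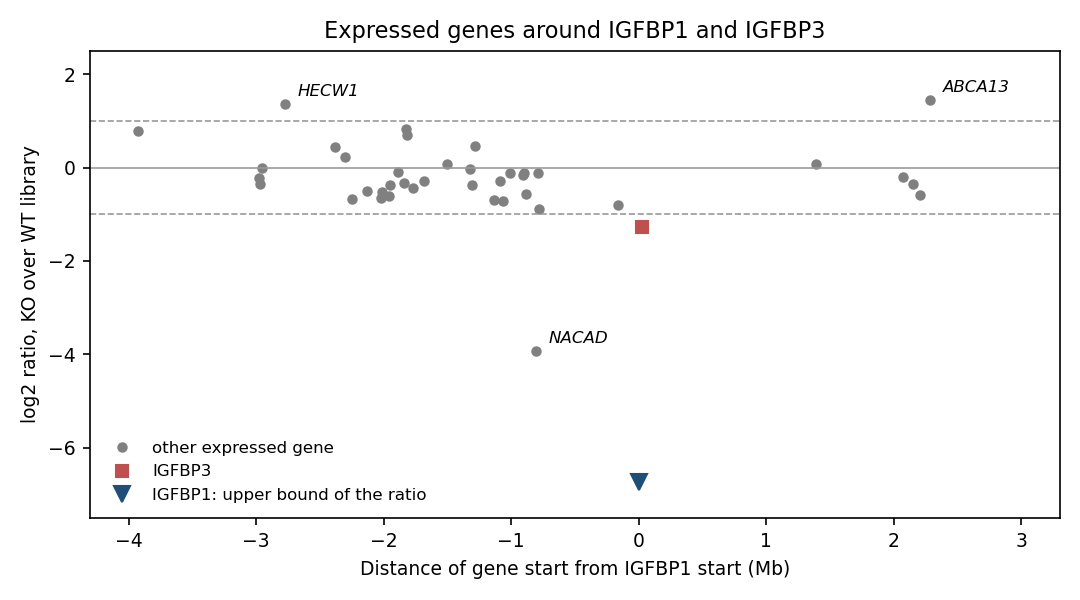
Log2 ratio of knockout over wild-type library for expressed genes (at least 100 reads) against the distance of their start from that of IGFBP1. IGFBP1 is drawn at the upper bound of its interval. IGFBP3 and IGFBP1 lie below the dashed line of a ratio of 0.5, as does NACAD, while the 39 other genes have a median of -0.28.

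IGFBP4, whose protein is cleaved by the metalloproteinase PAPPA, stood at the level of IGFBP1 in the wild-type library and was also far lower in the knockout. It had 25 fragments, or 0.481 CPM and 0.161 RPKM, in the knockout library and 593 fragments, or 9.77 CPM and 3.09 RPKM, in the wild-type library. The ratio was 0.0492 (interval 0.0316 to 0.0733), or 20.3-fold lower, and 93 of 16894 genes had a lower one. It lies on chromosome 17 (hg19, 38599676 to 38613982) between TOP2A, a topoisomerase with a ratio of 0.836 (0.823 to 0.850), and SMARCE1, a chromatin remodelling subunit with a ratio of 0.948 (0.921 to 0.976).

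IGFBP5 and IGFBP2 are neighbours too, 7.67 kb apart on chromosome 2, and both were near the limit of detection. IGFBP5, a matrix-associated binding protein, had 1 fragment (0.00230 RPKM) in the knockout and 19 fragments (0.0355 RPKM) in the wild-type library. Its ratio of 0.0614 has an interval of 0.00148 to 0.386, so its size is poorly fixed, and with a 99% interval it no longer meets the size rule. IGFBP2, which can bind integrins, had 5 fragments (0.0503 RPKM) in the knockout and 2 (0.0163 RPKM) in the wild-type library, a ratio of 2.92 with an interval of 0.477 to 30.6. No difference in IGFBP2 was detectable at this depth. The next expressed genes were RPL37A, a ribosomal protein gene 132 kb from IGFBP2, at a ratio of 0.940, and DIRC3, a long non-coding RNA gene 588 kb from IGFBP5, with 92 knockout and 11 wild-type fragments and a ratio of 9.75 (5.21 to 20.2).

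IGFBP6, which prefers IGF2 over IGF1, was the third most abundant binding protein transcript and differed little. It had 1289 fragments, or 24.8 CPM and 19.2 RPKM, in the knockout library and 1376 fragments, or 22.7 CPM and 16.6 RPKM, in the wild-type library. The ratio was 1.09, with an interval of 1.01 to 1.18. The 50 expressed genes nearest to it on chromosome 12 had a median log2 ratio of -0.20.

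**Figure D4:**
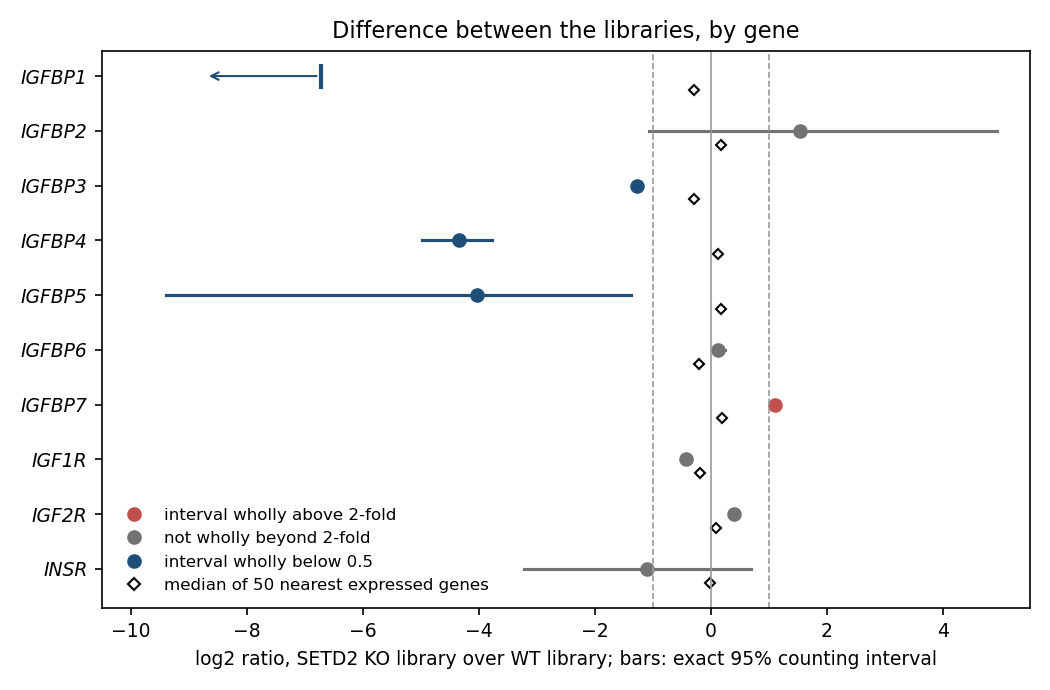
Log2 ratio of the knockout over the wild-type library for each gene, without added fragments, with exact 95% counting intervals. Diamonds mark the median log2 ratio of the 50 nearest expressed genes, and dashed lines mark 2-fold. IGFBP1 is an upper bound with an arrow, IGFBP1, IGFBP3, IGFBP4 and IGFBP5 lie wholly below a ratio of 0.5, and IGFBP7 lies wholly above 2.

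IGF1R and IGF2R differed by less than 2-fold, in opposite directions. IGF1R, the kinase receptor of both IGFs, had 2266 fragments, or 43.6 CPM and 2.90 RPKM, in the knockout library and 3543 fragments, or 58.4 CPM and 3.68 RPKM, in the wild-type library. Its ratio was 0.746 (interval 0.707 to 0.787). IGF2R went the other way, with 40830 fragments, or 785 CPM and 64.5 RPKM, in the knockout library and 36303 fragments, or 598 CPM and 46.6 RPKM, in the wild-type library, a ratio of 1.31 (1.29 to 1.33). The ratio of IGF2R to IGF1R fragments was therefore 18.0 (17.3 to 18.8) in the knockout and 10.2 (9.90 to 10.6) in the wild-type library, 1.76-fold apart. A non-coding row inside IGF2R, LOC729603, had 185 knockout and 156 wild-type fragments, and whether counting used strand is not given in the sources used here.

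INSR, the insulin receptor, was barely counted. It had 4 fragments (0.00635 RPKM) in the knockout and 10 fragments (0.0129 RPKM) in the wild-type library, a ratio of 0.467 with an interval of 0.107 to 1.62, so no difference was detectable at this depth. INSR is known as a widely expressed gene, and the annotation and counting settings are not given, so its level in these libraries is uncertain. No other row overlaps INSR on chromosome 19 (hg19, 7112266 to 7294011), and its neighbours ZNF557 and ARHGEF18 had 695 and 2842 knockout and 701 and 3210 wild-type fragments. The orphan relative INSRR had 4 fragments in each library.

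Promoter windows, 250 bases before to 50 bases after a RefSeq gene start (GRCh38.p14), were given for 8 of the 10 genes, and IGFBP1 and IGFBP7 had none. Those of the lower binding protein genes IGFBP3 (chr7:45921223-45921522, minus strand) and IGFBP4 (chr17:40443200-40443499, plus strand) and of the abundant receptor gene IGF2R (chr6:159968832-159969131, plus strand) are shown 5′ to 3′. Capitals mark ACGTG or GCGTG on either strand, the core letters of hypoxia response elements.
IGFBP3: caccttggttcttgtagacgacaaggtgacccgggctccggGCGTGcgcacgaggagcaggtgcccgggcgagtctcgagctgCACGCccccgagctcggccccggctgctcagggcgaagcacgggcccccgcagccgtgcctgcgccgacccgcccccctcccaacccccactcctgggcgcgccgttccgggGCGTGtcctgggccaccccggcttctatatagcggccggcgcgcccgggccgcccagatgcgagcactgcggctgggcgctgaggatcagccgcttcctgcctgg
IGFBP4: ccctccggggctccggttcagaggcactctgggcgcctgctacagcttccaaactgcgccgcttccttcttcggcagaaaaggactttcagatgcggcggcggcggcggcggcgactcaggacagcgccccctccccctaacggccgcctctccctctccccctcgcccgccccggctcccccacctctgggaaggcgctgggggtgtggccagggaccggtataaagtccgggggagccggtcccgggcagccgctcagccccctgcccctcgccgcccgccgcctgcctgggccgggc
IGF2R: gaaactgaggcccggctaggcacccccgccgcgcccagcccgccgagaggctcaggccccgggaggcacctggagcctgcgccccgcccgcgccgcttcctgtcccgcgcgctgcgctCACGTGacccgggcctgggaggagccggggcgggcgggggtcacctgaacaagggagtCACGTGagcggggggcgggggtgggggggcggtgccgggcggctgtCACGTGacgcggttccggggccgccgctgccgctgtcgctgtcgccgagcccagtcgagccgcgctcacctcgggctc
The IGFBP3 window holds GCGTG at 3 places, and the IGFBP4 window holds neither core. The IGF2R window holds CACGTG at 3 places, each of which contains ACGTG on both strands. Among windows not shown, that of IGF1R holds ACGTG at 1 place and GCGTG at 4. Those of IGFBP5, IGFBP6 and INSR hold neither core. IGFBP2 window 1 holds neither, window 2 holds GCGTG at 1 place and window 3 holds ACGTG at 1 place. Of 35097 RefSeq windows, 48.4% held ACGTG or GCGTG and 7.25% held CACGTG, on either strand. These windows held 36, 30 and 41 CG dinucleotides in IGFBP3, IGFBP4 and IGF2R, 55 in IGF1R, 36 in INSR, 12 in IGFBP6, 9 in IGFBP5, and 8, 28 and 6 in the 3 windows of IGFBP2, against a median of 14 over all windows. A match describes letters and does not show binding, and hg19 coordinates elsewhere in the text are on another build.

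Neither line had counts for the ligands. IGF1, IGF2 and INS had 0 fragments in both libraries, and 3 fragments would correspond to 0.00552, 0.00684 and 0.0669 RPKM in the knockout and 0.00448, 0.00555 and 0.0543 RPKM in the wild-type library. IGF2 and INS lie inside the read-through row INS-IGF2, also at 0. Of 204 genes that are part of such read-through rows, 17.2% were at 0 in both libraries, against 18.2% of all 23375 rows. These shares mix expressed and unexpressed genes, so they cannot tell whether reads of IGF2 or INS were left uncounted because of the overlap. With the counting settings not given, the 0 of IGF2 and INS is uncertain. IGFs supplied by the serum in the medium were not measured.

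Another 72 genes of the axis, chosen by role in 11 lists, had 63 measured members, of which 7 were higher and 2 lower in the knockout. The called genes were 14.3% of the 63, against 9.12% of all 16894 genes measured (5.75% higher and 3.37% lower). The lists were chosen with earlier results known, so nothing is read from this difference or from the list counts below. The median log2 ratio over the 63 genes was 0.03, against 0.02 over all genes. Relative to the 50 nearest expressed genes, PIK3R2, WISP2, GNPTG and RXRA no longer met the size rule. Their log2 ratios were then 1.03 for PIK3R2 and 1.97 for WISP2, with intervals that reached below 2-fold, and 0.90 for GNPTG and 0.86 for RXRA. Among receptor substrates and adaptors, 1 of 10 measured genes was higher and 0 lower (median 0.33). PIK3R2, a regulatory subunit of PI3-kinase, had 19.1 RPKM in the knockout and 8.46 RPKM in the wild-type library and a ratio of 2.14 (2.04 to 2.24). SHC1, the most abundant adaptor, had a ratio of 0.976, and the insulin receptor substrates IRS1 and IRS2 had 0.916 and 1.09. Of 8 genes that restrain receptor signalling, 0 were beyond 2-fold (median -0.26). The most abundant, the phosphatase PTPN1, had a ratio of 1.19, and the ubiquitin ligase NEDD4 was nearest to the size rule, at 0.513 (0.494 to 0.534).

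Genes that process the receptors or the binding proteins differed singly. Of 4 proprotein convertases, which cut IGF1R and INSR precursors and other proteins, PCSK6 was lower, with 24 knockout and 144 wild-type fragments and a ratio of 0.194 (0.121 to 0.301). PCSK6 was scarce, at 0.0516 RPKM in the knockout and 0.251 RPKM in the wild-type library. PCSK5 went the other way without being called, at 6.14 RPKM in the knockout and 2.99 RPKM in the wild-type library. Its ratio was 1.94 (1.85 to 2.04). FURIN, the most abundant, had a ratio of 0.861. Of 9 IGFBP proteases, their inhibitors and the acid-labile subunit, 1 was higher and 1 lower (median -0.19). HTRA1, a secreted serine protease that can cut IGFBP5, had 51.3 RPKM in the knockout and 22.4 RPKM in the wild-type library, a ratio of 2.17 (2.09 to 2.26). STC1, a stanniocalcin that inhibits PAPPA, was lower, at 1.58 RPKM in the knockout and 3.71 RPKM in the wild-type library and a ratio of 0.403 (0.360 to 0.451). The other stanniocalcin of the list, STC2, was more abundant, at 24.9 RPKM in the knockout and 27.3 RPKM in the wild-type library. Its ratio was 0.863 (0.840 to 0.886). PAPPA had 130 knockout and 173 wild-type fragments and a ratio of 0.876 (0.693 to 1.11). ADAM9, the most abundant of these genes, had a ratio of 1.26.

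The IGFBP-related proteins included the highest ratio among these lists. Of 7 measured members of 10, 2 were higher and none lower (median 1.08), and WISP1 had 5 knockout fragments and 1 wild-type fragment. NOV, a matricellular protein of the CCN family, had 2209 fragments (12.2 RPKM) in the knockout and 139 fragments (0.623 RPKM) in the wild-type library, a ratio of 18.5 (15.6 to 22.2). WISP2, of the same family, had 38 knockout and 9 wild-type fragments and a ratio of 4.92 (2.34 to 11.6). Their relatives differed among themselves: CTGF had a ratio of 2.12 with an interval that starts just below 2, and CYR61, the most abundant, a ratio of 0.725 (0.710 to 0.740).

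The remaining lists had few called genes. The IGF2 mRNA-binding proteins had 0 of 3 beyond 2-fold (median -0.35), with IGF2BP2, the most abundant, at a ratio of 1.10. In the mannose 6-phosphate sorting system, of which IGF2R is a receptor, 1 of 7 was higher and 0 lower (median -0.26). The higher gene was GNPTG, the gamma subunit of the phosphotransferase that makes the sorting tag, at 40.6 RPKM in the knockout and 16.9 RPKM in the wild-type library and a ratio of 2.28 (2.15 to 2.41). GNPTAB, which encodes its other subunits, had a ratio of 0.642 (0.617 to 0.668), and M6PR, the smaller mannose 6-phosphate receptor, had 0.486 (0.467 to 0.506). The genes around both were lower too: with the median of those 50 neighbours subtracted, the log2 ratio was -0.12 instead of -1.04 for M6PR and -0.10 instead of -0.64 for GNPTAB.

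Of 6 reported partners of IGFBPs, 1 was higher and 0 lower (median 0.11): the nuclear receptor RXRA, at a ratio of 2.09 (2.03 to 2.15), while ITGB1, the most abundant, had 0.998. Of 8 measured FOXO factors and targets, which insulin and IGF signalling restrain, 1 was higher and 0 lower (median 0.42). This was SESN3, a sestrin, with 83 knockout and 10 wild-type fragments and a ratio of 9.68 (5.01 to 20.9). CITED2, the most abundant, had a ratio of 1.28, and FOXO1 and FOXO3 had ratios of 0.674 and 1.63. PCK1 and G6PC, FOXO targets in liver, had 1 and 0 fragments in the knockout and 0 each in the wild-type library.

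**Figure D5:**
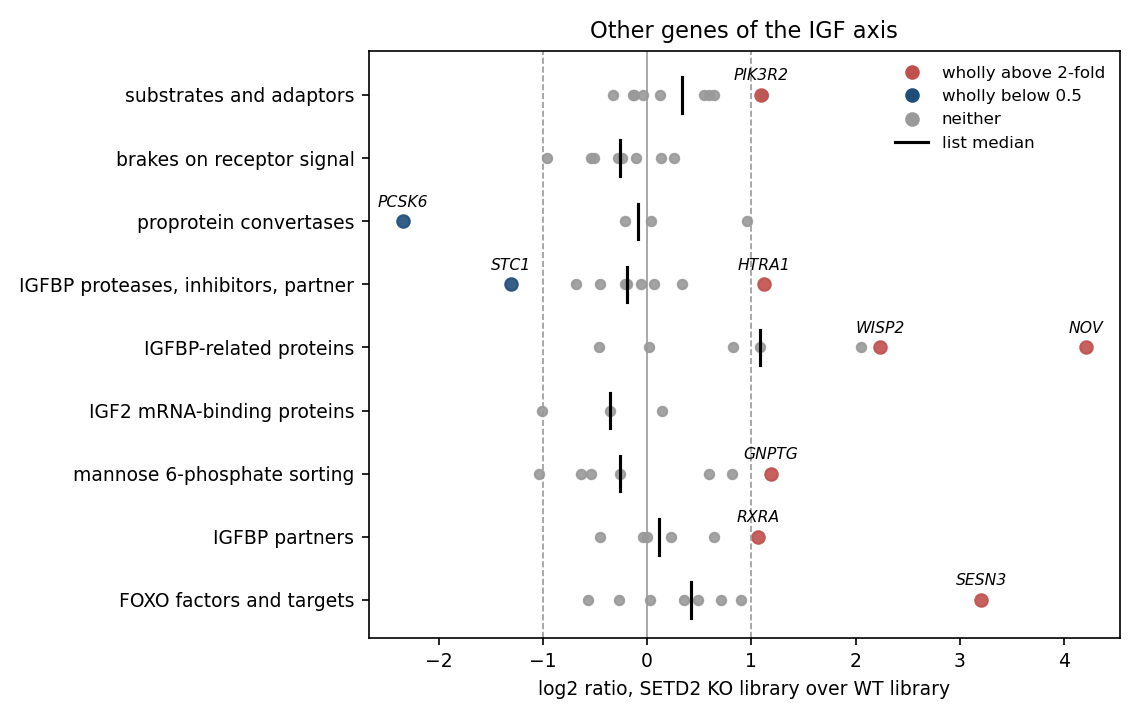
Log2 ratio of the knockout over the wild-type library for measured genes of 9 lists of the IGF axis, 1 point per gene, with list medians as black bars and dashed lines at 2-fold. Named points have intervals wholly beyond 2-fold: 7 are higher (NOV, SESN3, WISP2, GNPTG, HTRA1, PIK3R2 and RXRA) and 2 are lower (PCSK6 and STC1).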

How the data were processed

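Each library has a table that the authors deposited, and per the file headers it gives a count and an RPKM for every gene. The genome build hg19 and the tools TopHat2 2.0.6, Bowtie and HTSeq are named in the submitters' processing notes. Settings, annotation and strandedness are not given in the sources at hand. Each deposited count was even, so counts were divided by 2 to give fragments (the design assumed 1 count per read until the unit was checked), and RPKM equalled the count over the length column and 1 total per table. The Y rows of 23 genes listed on X and Y were dropped.

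Scaling used the trimmed mean of M values in edgeR 4.0.16 (R 4.3.3) on the 16894 genes that reached 10 reads in the sum of both libraries. Ratios have exact conditional (Clopper-Pearson) 95% intervals from scipy 1.17.1, and log2 ratios add 0.5 fragments per library. The intervals were run on simulated data with counting error only, as the intervals assume. That run checks the calculation and cannot tell how the 2-fold rule behaves between replicate libraries. Intervals and the floor of 3 fragments cover counting error only. Named genes were the 10 members, SETD2, the called and the most abundant gene of each list, the most abundant markers, expressed neighbours of called members and the 3 genes nearest to IGFBP1, and a few others were named after their values were seen. Members, lists and motifs were chosen with earlier results of these data, or the sequences, known. Alternatives included DESeq2 1.42.0 size factors.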

Additional observations from a re-analysis of the deposited data

How the results depend on the processing

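Of 86 values of the 10 genes under other scalings, minimums, counts, added fragments, deposited RPKM or relative to neighbouring genes, 0 changed sign among called genes and 15 left the counting interval. The log2 ratio of IGFBP3 ranged from -1.28 to -0.99, of IGFBP4 from -4.45 to -4.25 and of IGFBP7 from 0.92 to 1.19. Relative to the 50 nearest expressed genes, IGFBP3 and IGFBP7 were no longer called, which left 0 higher and 3 lower members, and 4 list genes were higher (HTRA1, NOV, SESN3 and LRP1) instead of 7. CTGF was also called under library totals, upper quartile scaling, a minimum of 50 reads and undivided counts. With undivided counts M6PR was also called lower, and 1361 of all genes were higher and 706 lower, against 971 and 569 with fragments. WISP2 was not called with a 99% interval. IGFBP5 was not called with a 99% interval and not measured at a minimum of 50 reads, which left 3 lower members each. At 1.5-fold, 1756 genes were higher and 1550 lower, against 971 and 569 at 2-fold, and 14 list genes were higher and 4 lower, against 7 and 2; the same members were called. By the ratio alone, 2278 genes were higher and 1316 lower, 2 members were higher with IGFBP2 added, 5 were lower with INSR added, and 4 list genes were lower. These follow from the looser rules. No paired analysis was possible because each line had 1 library, and none could be left out.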
